A study of Mus musculus with 384 samples.

Results

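CD4 and CD8 T cells taken from tumours of Il27ra knockout mice were compared gene by gene. The CD4 cells came from 1 plate and the CD8 cells from another, and a cell was kept when at least 1000 genes reached 1 FPKM (fragments normalised to transcript length and library size). This left 78 of 94 CD4 cells and 77 of 94 CD8 cells, together 51.5% of all cells kept from the 4 plates of the series. Each plate also carried 1 well labelled as a population of cells and 1 well without a cell, and the population wells served as a second readout.

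The tumour was B16F10, a transplantable mouse melanoma line, and the strain label is C57BL/6 for every mouse. The CD4 and the CD8 plate of the knockout source carry the genotype label IL27raKO, and the labels do not describe the deleted allele. The CD4 and CD8 plates of a wild-type source, with the genotype label wild type and with 74 and 72 of 94 cells kept each, are set beside them. The labels do not give the age or sex of the mice, the number of animals behind a plate, the number of cells in a population well, or the meaning of the animal names and plate numbers in the titles. The treatment label speaks of CD8+ cells only, while the titles of the plates name CD4 and CD8. There is thus 1 plate per cell type and genotype, and cell type, plate and well handling cannot be told apart. Cells of 1 plate are not replicates, so there is no test here, and no p-value is given.

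CD4 and CD8 are coreceptors that hold a T cell to MHC class II or class I while its receptor reads a peptide. CD4 cells in tumours include helper cells, which act through CD40 ligand and cytokines, and regulatory T cells, which are set by the transcription factor Foxp3 and restrain immunity. CD8 cells kill through perforin and granzymes and carry many receptors shared with natural killer cells. IL-27 acts through Il27ra and gp130 on both kinds of cell and is known for inducing co-inhibitory receptors and IL-10.

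The kept CD4 cells had 1080 to 6233 detected genes (median 2091) and the kept CD8 cells 1075 to 5525 (median 2243). The population libraries had 10449 and 10848 detected genes, and the wells without a cell had 6 and 8. At least 1 of Cd3d, Cd3e and Cd3g, chains of the T cell receptor complex, was detected in 75 of 78 CD4 cells and 76 of 77 CD8 cells. At least 2 markers of 1 of melanoma, myeloid, B, NK, gamma delta T, stromal or neutrophil cells, or the coreceptor of the other lineage, were detected in 9 of 78 CD4 cells and 14 of 77 CD8 cells. The other coreceptor was read from Cd8a alone in CD4 cells and from Cd4 in CD8 cells, and Cd8b1 was not counted. Tyr, the melanocyte enzyme tyrosinase, was read in 98.7% of CD4 and 97.4% of CD8 cells at low level (medians 8.36 and 7.73 FPKM). The summed level of 5 melanoma markers ranged from 0 to 549 FPKM over CD4 cells and from 0 to 1034 FPKM over CD8 cells. That of 12 myeloid markers ranged from 0 to 44152 FPKM over CD4 cells and from 0 to 3410 FPKM over CD8 cells, with a median of 0 in both. Without these cells, 47 genes were at least 2 log2 units higher in CD4 cells and 72 lower, against 44 and 74 with all kept cells.

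The coreceptors matched the plate titles. Cd4 (chr6:124864692-124888221, minus strand, GRCm38) was detected, at 1 FPKM or more, in 71 of 78 CD4 cells and in 1 of 77 CD8 cells. Its values ran from 0 through a median of 442 to 2865 FPKM in CD4 cells, and did not exceed 1.27 FPKM in CD8 cells. The population libraries held 907 FPKM in CD4 and 1.11 FPKM in CD8. Cd8a (chr6:71373427-71379173, plus strand) was detected in 0 of 78 CD4 cells and in 63 of 77 CD8 cells. With 3 cells taken as the limit for a count of 0, the share of CD4 cells in which it is detected could be up to 3.85%, which does not limit the share that expresses it. Its values stayed at or under 0.82 FPKM in CD4 cells and ran from 0 through a median of 395 to 1913 FPKM in CD8 cells. The groups overlapped only among cells at or near 0, and neither Cd4 nor Cd8a was detected in 7 CD4 and 14 CD8 cells. Some of these 14 CD8 cells held Cd8b1, the second CD8 chain, at up to 3492 FPKM, so not all of them lacked a coreceptor. Cd8b1 was read at 1 FPKM or more in 18 CD4 cells, all at 4.79 FPKM or less. It reached 10 FPKM or more in 0 of 78 CD4 and 62 of 77 CD8 cells. Its population value was 122.2 FPKM in CD4 and 2178 FPKM in CD8, whereas Cd8a stood at 0.66 and 831 FPKM in those libraries.

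**Figure D1:**
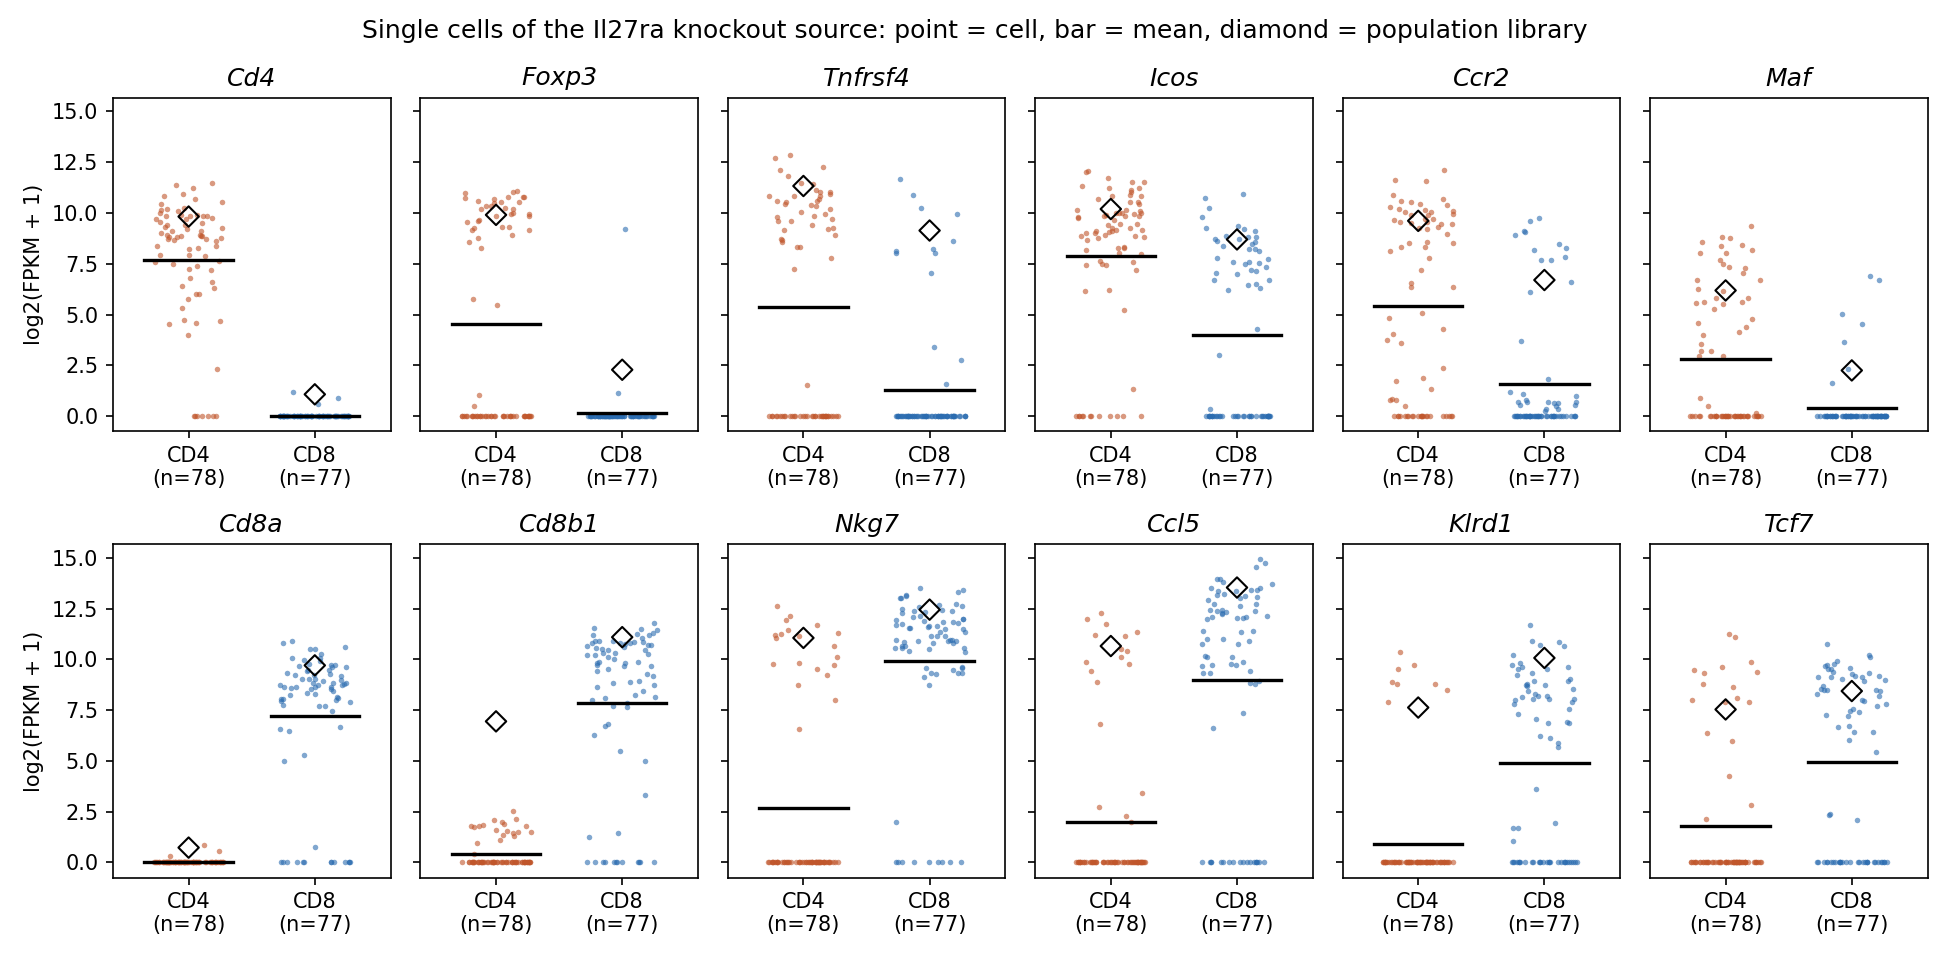
Expression of 12 genes in single cells of the knockout source, as log2(FPKM + 1) on the vertical axis, for 78 CD4 cells (left, orange) and 77 CD8 cells (right, blue). Each point is a cell, the bar is the mean over cells and the diamond is the population library. Most genes fall into cells near 0 and cells at high level, and Cd4 and Cd8a each have high cells on 1 plate only.

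The size of a difference is given as the mean of log2(FPKM + 1) over CD4 cells minus that over CD8 cells. This scale holds both the share of cells in which a gene is detected and its level in those cells. Of 7522 genes detected in at least 10% of the cells of either plate, 44 (0.585%) were at least 2 log2 units higher in CD4 cells and 74 (0.984%) at least 2 lower, together 1.57%. A difference of at least 1 in the population libraries in the same direction stood beside it for 39 higher (0.55%) and 40 lower genes (0.564%) of the 7088 measured in both readouts. The median of all 7522 genes was -0.21, and 33.2% of them were above 0. Measured from that median, 52 genes were at least 2 higher and 53 at least 2 lower, and in 62 cells per plate matched on detected genes the counts were 84 and 56. Which direction held more genes thus differed between these settings. Of the 44 higher genes, 43 were also higher in the CD4 population library, where 44.7% of 10032 genes were above 0. Of the 74 lower genes, 72 were lower there, against 55.3% of all genes. In a bulk library, fewer cells of a kind and less RNA per cell cannot be told apart. In the population libraries 597 genes (5.95%) were at least 2 higher and 879 (8.76%) at least 2 lower in CD4. These are ratios of single libraries and do not share a scale with the means of logs over cells, and with a pseudocount of 10 their counts were 0.173 and 0.130 times as large. Ratios of arithmetic means over the cells gave 4.02 times as many higher and 3.42 times as many lower genes as the means of logs, and on that scale 20 of the 44 and 18 of the 74 remained at least 2 apart. Ifi27l2a, Itgb7 and Ctsw are among those that did not, with 1.33, 1.24 and -1.16, and all of the 44 and the 74 kept their direction.

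The 44 higher and the 74 lower genes differed in form. In the higher genes the median gap in the share of detecting cells was 27.8 percentage points, and the level within detecting cells was higher by a median of 1.15 log2 units. In the lower genes the median gap in share was -27.6 points and that in level was -0.58. For all 7522 genes these medians were -4.00 points and 0.08. The level in detecting cells differed by at least 1 log2 unit, in the direction of the whole difference, for 26 of the 44 higher genes and 16 of the 74 lower genes. The share of all genes past this cut was not calculated, and both sets were picked on a mean that holds this level.

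**Figure D2:**
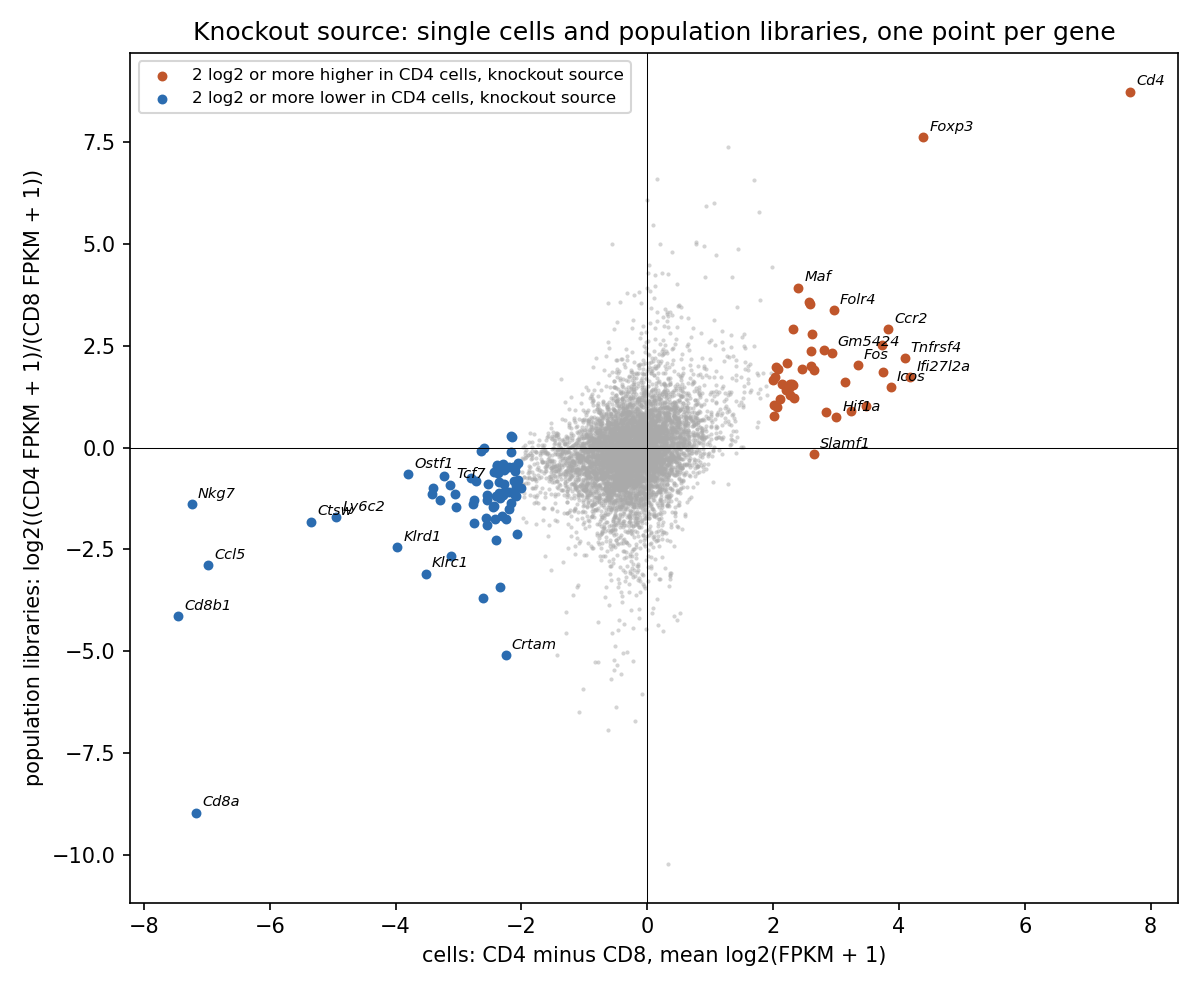
Difference between CD4 and CD8 in single cells (horizontal axis, difference of mean log2(FPKM + 1)) and in the population libraries (vertical axis, log2 ratio of FPKM + 1) of the knockout source, with 1 point per gene. Orange genes are at least 2 higher and blue genes at least 2 lower in CD4 cells; 43 of 44 and 72 of 74 of them lie on the same side of 0 in the population libraries.

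The CD8 lineage list had the widest median difference of the lists. Of its 12 members, 11 were below the all-gene median, where 50% of all genes lie, and 8 were at least 2 lower in CD4 cells. Cd8a, Crtam, Klrc1 and Xcl1 were among the members that passed the 10% filter through the CD8 plate only. Their place was thus partly set by the filter. The list median was -3.37 in the cells and -2.99 in the population libraries. Itgae, the integrin chain that binds E-cadherin, was the member that went the other way, detected in 21.8% of CD4 and 10.4% of CD8 cells, with 220 FPKM in the CD4 and 34.4 FPKM in the CD8 population library. Runx3, the transcription factor that maintains the CD8 fate, had a difference of -1.39, with 65.02 FPKM in CD4 and 106.3 FPKM in CD8 populations. Zbtb7b, the factor that sets the CD4 fate, had 20.6 FPKM in the CD4 and 2.79 FPKM in the CD8 population library, yet was detected in 16.7% and 5.19% of cells.

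Nkg7, a granule protein needed for killer cell degranulation, was detected in 20 of 78 CD4 cells (25.6%, with a 95% interval of 16.4 to 36.8) and 68 of 77 CD8 cells (88.3%, 78.97 to 94.5). Intervals are exact Clopper-Pearson intervals and cover counting error only. Its mean was 2.67 ± 4.63 in CD4 cells and 9.91 ± 3.93 in CD8 cells (log2(FPKM + 1), SD over 78 and 77 cells). The cells of both plates that carried it held it at high level, with medians of 1883 FPKM in CD4 and 2883 FPKM in CD8. The population values were 2123 FPKM in CD4 and 5571 FPKM in CD8, a log2 ratio of -1.39. The log2 ratio of arithmetic means over the cells was -2.57, and the difference of mean logs was -7.24. Ccl5, a chemokine that draws T cells and macrophages, had values from 0 through a median of 0 to 4946 FPKM in CD4 cells. In CD8 cells it ran from 0 through a median of 2033 to 30928 FPKM. Here the level within detecting cells differed too, with medians of 1025 FPKM in CD4 and 4551 FPKM in CD8. Ccl5 was therefore lower in CD4 in both its share of cells and its level per detecting cell.

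The promoters of some of the most widely lower genes are shown to give their letters, from RefSeq (GRCm38.p6, 250 bases before to 50 after the gene start). The core motif of RUNX factors, TGTGGT, and the AP-1 motif, TGANTCA, were sought on both strands, and the RUNX motif, which appears as TGTGGT or ACCACA, is in capitals. Of the 15 most widely lower named genes, 9 had a promoter in the table and 6 of those held the RUNX motif, namely Cst7, Klrc1, Klrk1, Ly6c2, Nkg7 and Rps2. Of the 15 most widely higher genes, 9 had a promoter and 0 held it. Among all 27025 genes, 18.9% held it. Over all genes 2 or more apart, 4 of 38 promoters of higher genes and 20 of 65 of lower genes held it, against 16.8% of 32851 promoters. The AP-1 motif was in 6 of the 38 and 11 of the 65, against 7.81% of all promoters, so its share was above that of all promoters in both directions. A match is a description of letters and not a binding site, and control by either family was not tested. The 4 examples are, for Nkg7 chr7:43436888-43437187 (plus strand), Klrc1 chr6:129678924-129679223 (minus), Klrk1 chr6:129623815-129624114 (minus) and Cst7 chr2:150570165-150570464 (plus).
Nkg7: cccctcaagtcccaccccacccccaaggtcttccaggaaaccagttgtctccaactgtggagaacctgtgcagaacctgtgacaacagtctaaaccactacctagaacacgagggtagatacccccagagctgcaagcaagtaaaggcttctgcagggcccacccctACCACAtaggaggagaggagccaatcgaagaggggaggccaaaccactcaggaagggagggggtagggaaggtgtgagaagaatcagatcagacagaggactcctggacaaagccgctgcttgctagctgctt
Klrc1: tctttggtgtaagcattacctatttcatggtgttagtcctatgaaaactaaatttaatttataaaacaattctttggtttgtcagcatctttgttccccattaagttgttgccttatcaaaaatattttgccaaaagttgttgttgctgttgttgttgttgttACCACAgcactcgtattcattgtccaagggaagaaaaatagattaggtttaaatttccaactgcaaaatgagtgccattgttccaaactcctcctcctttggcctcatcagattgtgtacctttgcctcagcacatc
Klrk1: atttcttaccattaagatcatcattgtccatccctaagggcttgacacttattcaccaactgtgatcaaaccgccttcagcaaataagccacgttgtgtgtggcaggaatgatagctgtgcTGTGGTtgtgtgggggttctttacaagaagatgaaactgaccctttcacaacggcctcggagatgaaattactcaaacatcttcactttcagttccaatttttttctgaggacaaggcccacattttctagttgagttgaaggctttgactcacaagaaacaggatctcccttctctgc
Cst7: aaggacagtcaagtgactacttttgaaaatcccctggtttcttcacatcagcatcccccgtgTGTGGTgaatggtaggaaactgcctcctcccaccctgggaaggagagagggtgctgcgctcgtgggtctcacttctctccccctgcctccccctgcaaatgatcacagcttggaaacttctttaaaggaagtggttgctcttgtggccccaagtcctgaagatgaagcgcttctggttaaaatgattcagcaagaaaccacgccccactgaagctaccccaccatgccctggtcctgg

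Of the genes of cytotoxic granules and killing, 10 of 14 measured members were below the all-gene median, and 3 (Nkg7, Ctsw and Cst7) were at least 2 lower. Ctsw, a cathepsin of killer cells, was detected in 24.4% of CD4 and 83.1% of CD8 cells, but CD4 cells that carried it held more (median 1265 FPKM in CD4, 683 FPKM in CD8). Cst7, cystatin F, an inhibitor of granule cathepsins, was detected in 21.8% of CD4 and 54.5% of CD8 cells. Prf1, the pore-former perforin, was detected in 7.69% of CD4 and 23.4% of CD8 cells, with population values of 89.8 FPKM in CD4 and 727 FPKM in CD8. Gzmb, a granzyme, was not lower: it was detected in 37.2% of CD4 cells (26.5 to 48.9) and 33.8% of CD8 cells (23.4 to 45.4), and its population value was 4227 FPKM in CD4 and 1084 FPKM in CD8. Srgn, the proteoglycan serglycin that packs granules, had 4400.00 FPKM in the CD4 and 2471 FPKM in the CD8 population library.

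Receptors of the killer cell lectin-like family and their adaptors were mostly lower in CD4. In the cells, 11 of 12 measured members were below the all-gene median, where 50% of all genes lie. There 5 were at least 2 lower, against 0.984% of all genes. In the population libraries 11 of 12 were lower in CD4, against 55.3% of all genes. Klrc1, Klra6 and Cd160 were among the members that passed the 10% filter through the CD8 plate only. Their place in the cells was thus partly set by the filter. Klrd1 (CD94), the partner chain of the NKG2 receptors, was detected in 10.3% of CD4 and 62.3% of CD8 cells, and its population value was 196.5 FPKM in CD4 and 1072 FPKM in CD8. Klrc1 (NKG2A), the inhibitory receptor that pairs with it, was detected in 3.85% of CD4 and 44.2% of CD8 cells. Klrk1 (NKG2D), an activating receptor for stress ligands, was detected in 17.9% of CD4 and 57.1% of CD8 cells. Hcst (DAP10), the adaptor through which NKG2D signals, was detected in 42.3% of CD4 and 64.9% of CD8 cells. Klrg1 was the exception, with detection in 26.9% of CD4 and 11.7% of CD8 cells and with 787 FPKM in the CD4 and 62.9 FPKM in the CD8 population library. Klrc1 and Klrc2 are close copies, so their separate values are uncertain.

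Of 6 measured chemokine ligands, Ccl5 and Ccl4 were at least 2 lower in CD4 cells. Ccl4 (MIP-1 beta) was detected in 3 of 78 CD4 and 22 of 77 CD8 cells, and its population value was 1018 FPKM in CD4 and 3774 FPKM in CD8. Xcl1, which recruits cross-presenting dendritic cells, was detected in 2.56% of CD4 and 15.6% of CD8 cells. Cxcl10, an interferon-induced chemokine, stood the other way, with 477 FPKM in the CD4 and 51.5 FPKM in the CD8 population library.

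Markers of regulatory T cells were the most uniformly higher group in CD4. All 19 of 20 listed members that were measured lay above the all-gene median in the cells and above 0 in the population libraries, 7 were at least 2 higher, against 0.585% of all genes, and 17 at least 1 higher, against 2.57%. Foxp3, Lrrc32, Areg, Il1rl1, Folr4 and Il10 were among the members that passed the 10% filter through the CD4 plate only. Their place above the median in the cells was thus partly set by the filter. The list median was 1.76 in the cells and 2.52 in the population libraries. Foxp3 (chrX:7573644-7595245, plus strand) was detected in 37 of 78 CD4 cells (47.4%, 36.01 to 59.1) and 2 of 77 CD8 cells (2.60%, 0.32 to 9.07). Its median among detecting CD4 cells was 983 FPKM, its mean was 4.52 ± 4.94 in CD4 and 0.13 ± 1.06 in CD8 cells (log2(FPKM + 1), SD over 78 and 77 cells), and the population libraries held 961 FPKM in CD4 and 3.88 FPKM in CD8. Foxp3 thus divided the CD4 plate into cells at high level and cells at 0, with few between. Il2ra (CD25), the IL-2 receptor chain that gives high affinity, was detected in 53.8% of CD4 and 15.6% of CD8 cells. Foxp3 and Il2ra were detected together in 32 of 78 CD4 and 0 of 77 CD8 cells. Lrrc32 (GARP), which displays latent TGF-beta, had 79.5 FPKM in the CD4 and 0.45 FPKM in the CD8 population library. Areg, a growth factor of tissue-repair regulatory cells, was detected in 29.5% of CD4 and 3.90% of CD8 cells, with a highest single-cell value of 15087 FPKM in CD4 and 1231 FPKM in CD8. Il10, the suppressive cytokine that IL-27 induces, was detected in 11 of 78 CD4 cells at 10 FPKM or more and in 0 of 77 CD8 cells. The same limit of 3 cells allows a detected share of up to 3.90% there. The population libraries held 441 FPKM of Il10 in CD4 and 39.4 FPKM in CD8.

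The TNF receptor family carried several of the widest differences among co-stimulatory receptors. Of 15 measured members, 6 were at least 2 higher and 2 (Slamf7 and Crtam) at least 2 lower in CD4 cells. Tnfrsf4 (OX40), which prolongs survival of activated T cells, had values from 0 through a median of 270 to 7435 FPKM in CD4 cells. In CD8 cells they ran from 0 through a median of 0 to 3287 FPKM, and the population libraries held 2576 FPKM in CD4 and 563 FPKM in CD8. Tnfrsf18 (GITR) was detected in 70.5% of CD4 and 42.9% of CD8 cells. Icos, a CD28 relative that supports helper and regulatory cells, was detected in 84.6% of CD4 and 50.6% of CD8 cells, with population values of 1174 FPKM in CD4 and 415 FPKM in CD8. Tnfrsf9 (4-1BB) was detected in 43.6% of CD4 and 25.97% of CD8 cells. Slamf1 was higher in CD4 cells by 2.65 but not in the population library, where it stood at 144.1 FPKM in CD4 and 161.4 FPKM in CD8. Crtam, an adhesion receptor of activated CD8 cells, was detected in 0 of 78 CD4 and 21 of 77 CD8 cells.

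A division of the CD4 cells by Foxp3 gave a different picture gene by gene. The 37 cells with Foxp3 had a median of 2076 detected genes and the other 41 had 2095. Of the 44 genes higher in CD4 cells, 35 had a wider difference from CD8 cells in the Foxp3-detected cells. The share of all genes for which this held was not calculated, so 35 of 44 has no background to be read against. In the 41 cells without Foxp3, 19 of the 44 remained at least 2 higher than in CD8 cells, 35 at least 1 higher and 41 above 0. Foxp3 is among the 44, and the division fixed its own place in these counts. Tnfrsf4 differed from CD8 cells by 7.56 in cells with Foxp3 and by 0.95 in cells without it. Ctla4, the inhibitory receptor that competes with CD28, differed by 4.96 and -0.58, and Tnfrsf9 by 5.10 and -0.41, so both lay below the CD8 mean in the cells without Foxp3. The median of the co-stimulatory list was 1.41 with Foxp3 and -0.30 without. Gzmb followed the same line, being detected in 62.2% of CD4 cells with Foxp3, 14.6% of those without and 33.8% of CD8 cells.

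Other genes were higher mainly in the cells without Foxp3. Cd40lg, the ligand by which helper cells license dendritic and B cells, was detected in 5.41% of CD4 cells with Foxp3, 60.98% of those without and 7.79% of CD8 cells. Fos, Fosb, Egr1, Nr4a1, Nfkbid and Crem also differed more widely in the cells without Foxp3, with 2.18 in cells with Foxp3 and 4.39 in cells without it for Fos. Cd4 itself differed by 7.54 and 7.79, and Icos by 4.32 and 3.46, so both were higher than in CD8 cells on either side of the division. Among the 74 lower genes, 48 were at least 2 lower in the cells without Foxp3 and all 74 were below 0. Since the division used a gene of the same cells, these values describe the plate and carry no test.

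**Figure D3:**
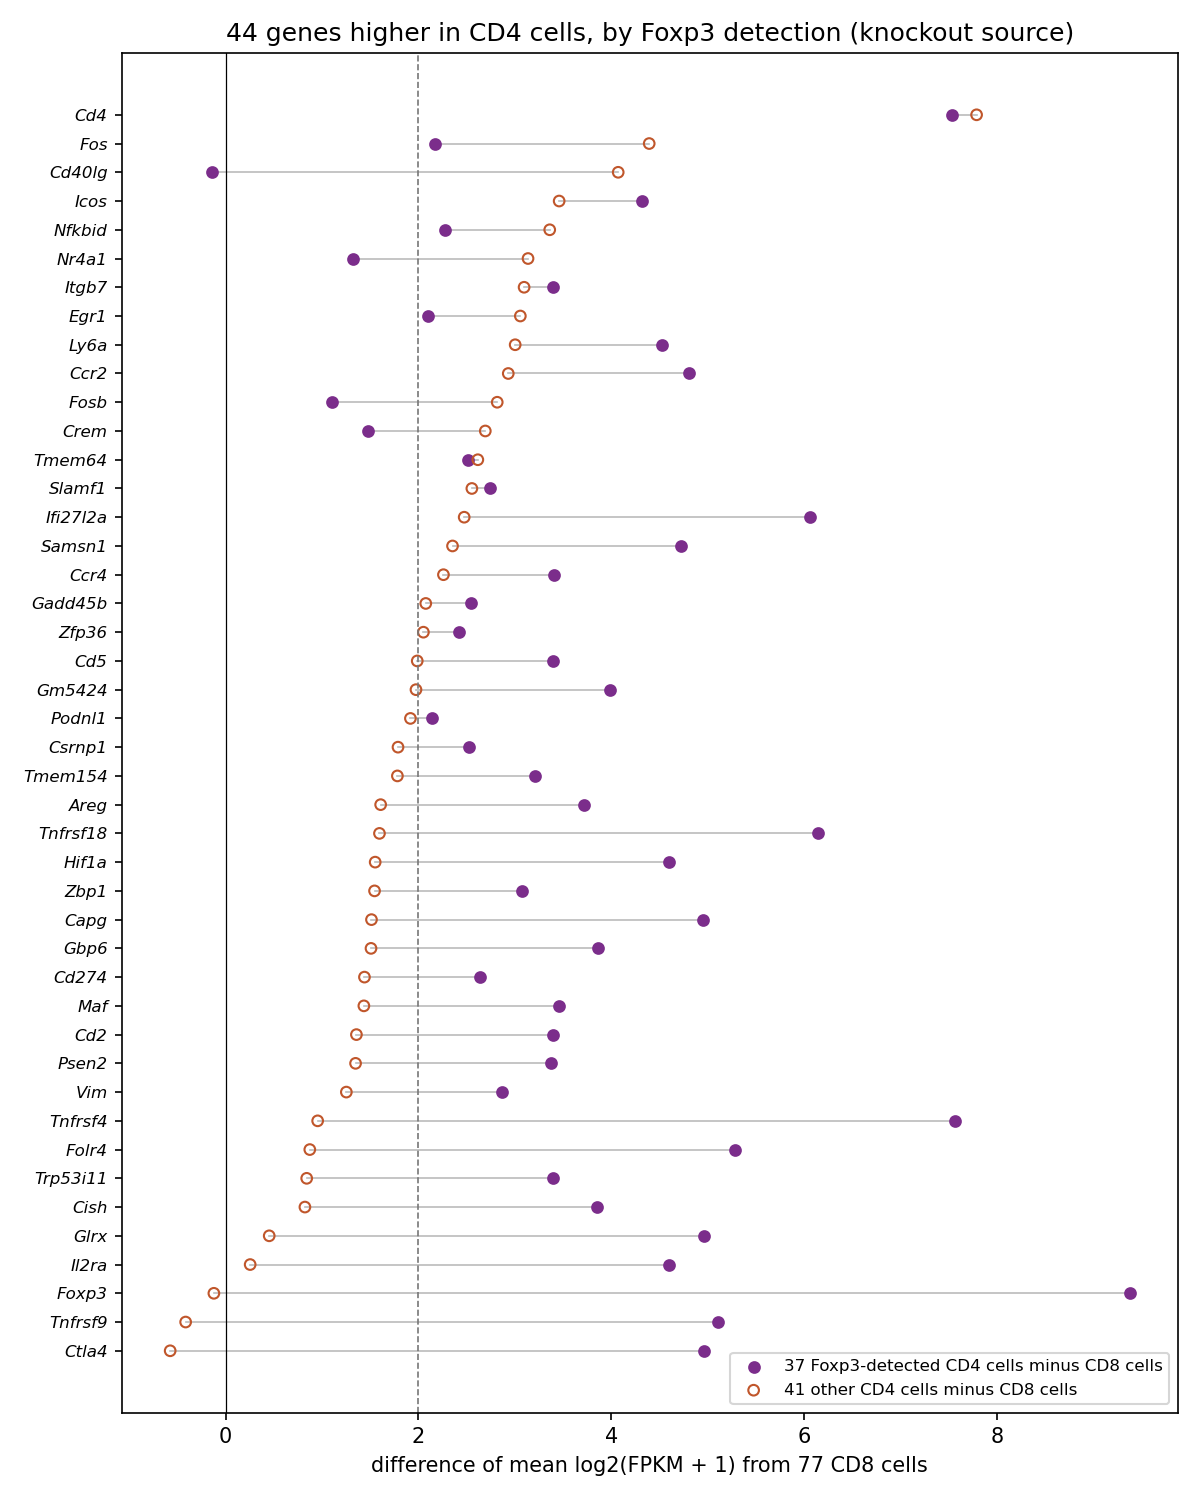
The 44 genes higher in CD4 cells, each with its difference from 77 CD8 cells in mean log2(FPKM + 1) on the horizontal axis, for 37 CD4 cells with Foxp3 detected (filled) and 41 without (open). Foxp3, which made the division, is among the 44. Tnfrsf4, Il2ra, Tnfrsf9 and Ctla4 lie near or below 1 in the open points, and Cd40lg lies near 0 in the filled ones; the dashed line marks 2.

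Genes of the CD4 lineage and of help were higher as well, on a list that shares Folr4 with the regulatory list and holds Tnfrsf4 and Icos. Of 12 members of the CD4 lineage and help list, 11 were above the all-gene median, where 50% of all genes lie. In the cells 6 were at least 2 higher, against 0.585% of all genes. All 12 were above 0 in the population libraries, against 44.7% of all genes. Cd4, Folr4, Cd40lg and Zbtb7b were among the members that passed the 10% filter through the CD4 plate only. Their place in the cells was thus partly set by the filter. The median difference of the list was 2.403 for CD4 cells with Foxp3 and 1.00 for those without it, each against CD8 cells. Gata3, a factor of CD4 differentiation and Th2 cells, was detected in 71.8% of CD4 and 58.4% of CD8 cells, with population values of 542 FPKM in CD4 and 199.5 FPKM in CD8. Folr4 (Izumo1r), a folate receptor family protein found on regulatory and follicular cells, was detected in 42.3% of CD4 and 7.79% of CD8 cells. Cd5, an inhibitor of T cell receptor signals, was detected in 73.1% of CD4 and 42.9% of CD8 cells. Ccr4, a chemokine receptor of Th2 and regulatory cells, had values from 0 to 1155 FPKM in CD4 and from 0 to 909 FPKM in CD8 cells, and was detected in 43.6% of CD4 and 7.79% of CD8 cells.

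Cytokines and factors of the helper subsets differed by member. Il4 was detected in 2.56% of CD4 and 0.00% of CD8 cells. The Th1 list had a median of -0.84 over 9 measured members. Tbx21 (T-bet), the Th1 and effector factor, was detected in 20.5% of CD4 and 42.9% of CD8 cells, and Ifng in 8.97% of CD4 and 24.7% of CD8 cells. Stat4, which relays IL-12 signals, was detected in 43.6% of CD4 and 70.1% of CD8 cells. Il12rb1, a receptor chain for IL-12 and IL-23, stood the other way, with 249.7 FPKM in the CD4 and 43 FPKM in the CD8 population library.

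The IL-27 receptor itself was read in both plates labelled knockout. Il27ra was detected in 47.4% of CD4 and 57.1% of CD8 cells, with population values of 133.4 FPKM in CD4 and 92.9 FPKM in CD8. The wild-type population libraries held 244.6 FPKM in CD4 and 155.4 FPKM in CD8. A gene-level value cannot show which part of the transcript was read, so it does not check the genotype label. Of 12 measured genes of the IL-27 co-inhibitory module, 9 were above the all-gene median, where 50% of all genes lie. The list median was 0.43 in cells and 0.61 in population libraries. Against CD8 cells, it was 1.58 for CD4 cells with Foxp3 and -0.44 for those without, where the all-gene median was -0.28. In the wild-type source it was -0.53, with an all-gene median of -0.38. Maf, the factor that with Prdm1 drives Il10 and co-inhibitory receptors downstream of IL-27, was detected in 44.9% of CD4 and 9.09% of CD8 cells. Its population value was 72.02 FPKM in CD4 and 3.77 FPKM in CD8. Prdm1 (Blimp-1) was detected in 28.2% of CD4 and 6.49% of CD8 cells. Maf was also higher in the CD4 cells without Foxp3, detected in 31.7% of them and 59.5% of those with it.

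Co-inhibitory receptors differed by member. The list median was 0.45 over 13 measured members, with 2 at least 2 higher in CD4 cells (Ctla4 and Cd274) and 1 at least 2 lower (Cd96). Lag3, a receptor for MHC class II, was detected in 26.9% of CD4 (17.5 to 38.2) and 24.7% of CD8 cells (15.6 to 35.8), a difference of -0.01. Havcr2 (Tim-3) was detected in 11.5% of CD4 and 11.7% of CD8 cells. Pdcd1 (PD-1) was detected in 24.4% of CD4 (15.3 to 35.4) and 32.5% of CD8 cells (22.2 to 44.1), and its population value was 497 FPKM in CD4 and 940.45 FPKM in CD8. Tigit was detected in 64.1% of CD4 and 58.4% of CD8 cells. Within CD4, Ctla4, Tigit and Lag3 were detected in 94.6%, 75.7% and 35.1% of cells with Foxp3 and in 43.9%, 53.7% and 19.5% of those without, while Pdcd1 was detected in 13.5% and 34.1%.

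Genes of naive and memory cells were lower in part. Of 15 measured members, 3 (Ly6c2, Tcf7 and Ccr7) were at least 2 lower in CD4 cells, and the list median was -0.64 in cells and 0.17 in the population libraries. Tcf7 (TCF-1), the factor of naive, memory and stem-like T cells, had values from 0 through a median of 0 to 2392 FPKM in CD4 cells. In CD8 cells they ran from 0 through a median of 105.4 to 1744 FPKM, and the population libraries held 184.03 FPKM in CD4 and 345.7 FPKM in CD8. Ccr7, the lymph node homing receptor, was detected in 14.1% of CD4 and 38.96% of CD8 cells, with 106.9 FPKM in the CD4 and 1163 FPKM in the CD8 population library. Tcf7 and Ccr7 were detected together in 8 of 78 CD4 and 26 of 77 CD8 cells. Tcf7 was detected in 5.41% of CD4 cells with Foxp3 and 39.02% of those without. Ly6c2, a surface marker of memory and effector CD8 cells, was detected in 26.9% of CD4 and 63.6% of CD8 cells, and differed by -4.94. Bcl2, the survival protein, was detected in 19.2% of CD4 and 54.5% of CD8 cells.

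Homing and adhesion genes split by member. Ccr2, the receptor for monocyte chemoattractants, was detected in 65.4% of CD4 and 22.1% of CD8 cells, with population values of 784 FPKM in CD4 and 103.2 FPKM in CD8. Itgb7, the integrin chain of gut and E-cadherin homing, was detected in 83.3% of CD4 and 51.9% of CD8 cells, and its population values were 457 FPKM in CD4 and 245.7 FPKM in CD8. Ly6a (Sca-1), an interferon-responsive surface protein, was detected in 83.3% of CD4 and 71.4% of CD8 cells, and its median over cells was 1780.02 FPKM in CD4 and 16.7 FPKM in CD8. Most CD8 cells that carried Ly6a held less of it. Cxcr6 and Cxcr3, receptors of tumour-resident and Th1-type cells, had differences of -1.22 and -0.63.

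Immediate early genes, which respond within minutes to receptor signals, were higher for part of the list. Of 24 measured members, 4 (Fos, Egr1, Zfp36 and Fosb) were at least 2 higher in CD4 cells, against 0.585% of all genes. Only Dusp2 was at least 2 lower, against 0.984% of all genes. In the CD4 population library 19 of 23 were higher, where 44.7% of all genes were above 0. The list median in the cells was 0.43, and the direction was the same in both readouts for 16 of the 23. Fos was detected in 79.5% of CD4 and 50.6% of CD8 cells, with population values of 4032 FPKM in CD4 and 983 FPKM in CD8. Egr1 was detected in 56.4% of CD4 and 37.7% of CD8 cells. Nr4a1, an orphan receptor that follows T cell receptor signals, was detected in 69.2% of CD4 and 49.4% of CD8 cells, while its relative Nr4a2 was detected in 11.5% and 42.9%.

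Interferon-stimulated genes gave different pictures in the 2 readouts. In the population libraries all 27 measured members were higher in CD4 (median 1.39), where 44.7% of all genes were above 0, but the median in the cells was 0.13 and 18 of 27 were above the all-gene median. Igtp and Iigp1, GTPases induced by interferon gamma, were higher in both readouts. Igtp was detected in 60.3% of CD4 and 44.2% of CD8 cells, with 1700.06 FPKM in the CD4 and 298.2 FPKM in the CD8 population library. Iigp1 was detected in 17.9% of CD4 and 1.30% of CD8 cells, with 268.3 FPKM in the CD4 and 8.17 FPKM in the CD8 population library. Irf1 had 2682 FPKM in the CD4 and 587 FPKM in the CD8 population library, and Gbp6 589 and 83.5 FPKM. Ifit3 and Usp18, of the type I response, were lower in the cells, with Ifit3 detected in 10.3% of CD4 and 19.5% of CD8 cells and Usp18 in 5.13% and 23.4%. The peptide transporters Tap1 and Tap2 differed by 1.52 and 1.49. Zbp1, a sensor of Z-form nucleic acids, was detected in 39 of 78 CD4 cells and in 24.7% of CD8 cells.

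Ribosomal protein genes were lower throughout. All 35 measured members lay below the all-gene median in CD4 cells, 28 were at least 1 lower, against 9.32% of all genes, and all 35 were lower in the CD4 population library. The list median was -1.37 in the cells and -0.71 in the population libraries, and -0.86 in 62 cells per plate matched on detected genes. Rpl13 was detected in every cell, with values from 3.77 through a median of 1629 to 9145 FPKM in CD4 and from 525 through 3073 to 14747 FPKM in CD8 cells. Rps2 had the widest difference, detected in 76.9% of CD4 and 96.1% of CD8 cells, and its population value was 726 FPKM in CD4 and 1609 FPKM in CD8. These genes have many processed copies in the genome, so single values are uncertain. Among single genes chosen after their values were seen, the nucleolar proteins Npm1 and Nop56 had differences of -2.54 and -3.04, and Eef1g, an elongation factor subunit, had -2.40. The initiation factor genes Eif3f and Eif4a1 differed by -2.80 and -2.10 here but by 0.78 and 0.03 in the wild-type source.

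Respiratory chain genes were lower in the kept cells, and close to equal in cells matched on detected genes. Of 33 measured members, 27 were below the all-gene median, where 50% of all genes lie. In the CD4 population library 28 were lower, against 55.3% of all genes. The list median was -0.78 in the kept and -0.07 in the matched cells, where CD4 and CD8 cells had medians of 2144.5 and 2167.5 detected genes. Cox4i1, a subunit of cytochrome oxidase, was detected in 74.4% of CD4 and 94.8% of CD8 cells. Glycolysis had a median of -0.04 over 18 members. The member that was at least 2 higher was Hif1a, the oxygen-responsive factor that induces glycolytic genes, detected in 79.5% of CD4 and 49.4% of CD8 cells, with population values of 411 FPKM in CD4 and 242.8 FPKM in CD8. Of 23 measured proliferation genes, 21 were lower in the CD4 population library (median -0.61), where 55.3% of all genes were lower. Their median in the cells was -0.44, against -0.21 for all genes. Tubb5, a tubulin, was detected in 93.6% of CD4 and 93.5% of CD8 cells and held 949 FPKM in the CD4 and 2736 FPKM in the CD8 population library.

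**Figure D4:**
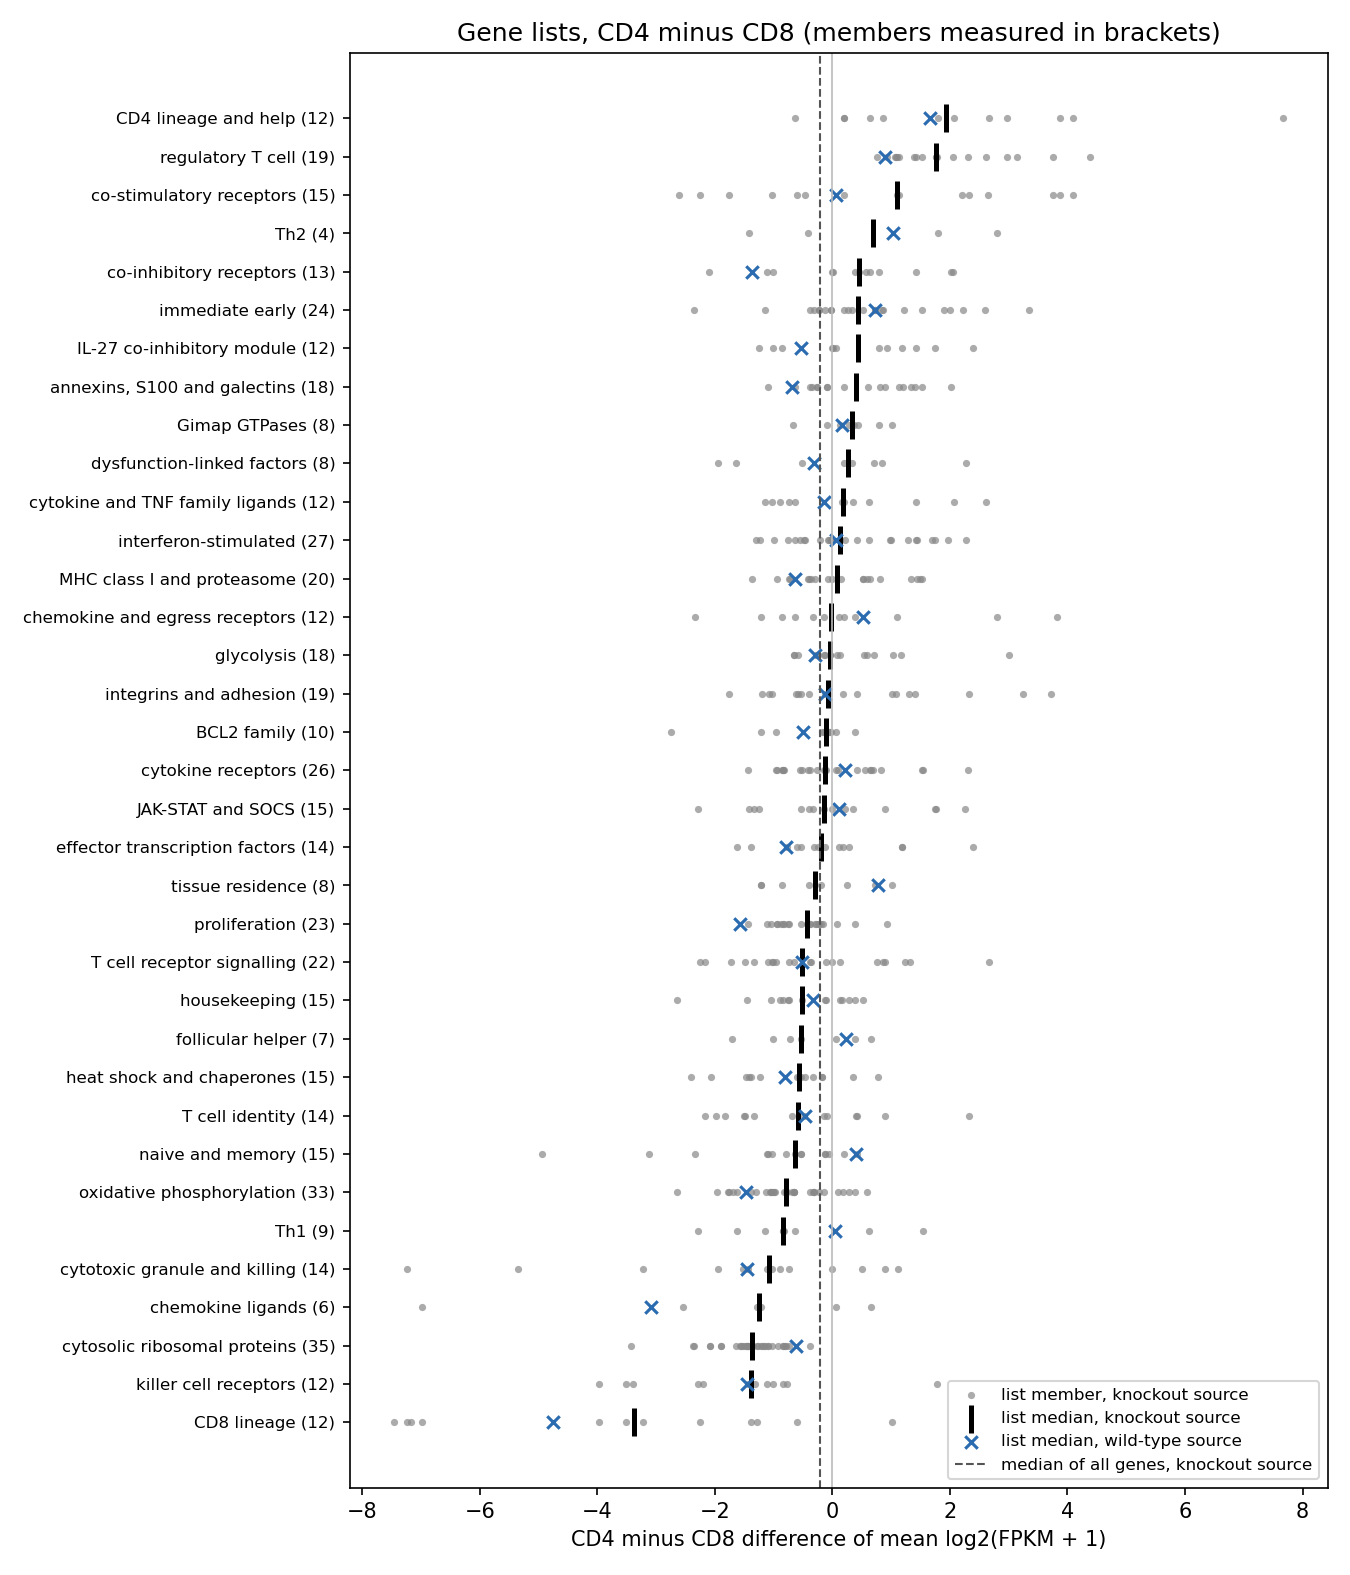
Gene lists ordered by their median difference, CD4 minus CD8, in mean log2(FPKM + 1) on the horizontal axis. Grey points are measured members and black bars list medians in the knockout source, blue crosses are list medians in the wild-type source, and the dashed line is the all-gene median of -0.21. The CD4 lineage list has a median of 1.93, the regulatory list 1.76 and the CD8 lineage list -3.37.

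Some of the widest differences lay in genes outside every list. Ifi27l2a, an interferon-inducible mitochondrial protein, was detected in 76.9% of CD4 and 36.4% of CD8 cells, with population values of 4492 FPKM in CD4 and 1341 FPKM in CD8. Samsn1, an adaptor that restrains lymphocyte activation, was detected in 74.4% of CD4 and 35.1% of CD8 cells. Glrx, glutaredoxin, had 2421 FPKM in the CD4 and 208.1 FPKM in the CD8 population library, and was detected in 57.7% of CD4 and 36.4% of CD8 cells. Among lower genes, Ostf1, an SH3 protein first described in osteoclasts, was detected in 57.7% of CD4 and 94.8% of CD8 cells. B4galnt1, the ganglioside synthase, was detected in 51.3% of CD4 and 79.2% of CD8 cells. Amica1 (JAML), an adhesion receptor that co-stimulates killer cells, was detected in 3.85% of CD4 and 45.5% of CD8 cells. Ms4a4b, a membrane protein of T cells, was detected in 76.9% of CD4 and 96.1% of CD8 cells.

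Few genes separated the plates by presence alone. Cd4 was the one gene found in at least 50% of CD4 and at most 5% of CD8 cells, and Cd8a the one gene with the opposite pattern. With at least 20% on 1 plate and at most 5% on the other, 8 genes marked CD4 cells and 18 marked CD8 cells. The 8 were Cd4, Foxp3, Lrrc32, Areg, Il1rl1, Rarg, Lamc1 and Sdc4. Il1rl1 (ST2), the receptor for the alarmin IL-33, was detected in 29.5% of CD4 and 3.90% of CD8 cells. The 18 included Cd8a, Ccl4, Crtam, Klrc1, Slamf7, Amica1 and Samd3.

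Detection of several genes in the same cell was counted as a description. The 8 killer genes (Nkg7, Ccl5, Ctsw, Klrd1, Cst7, Prf1, Gzmb and Gzmk) were chosen after their values were seen and include several of the most widely lower genes, so a gap between the plates restates that choice. At least 4 of them were detected in 7 of 78 CD4 cells (8.97%, 3.68 to 17.6) and 55 of 77 CD8 cells (71.4%, 59.996 to 81.2). None of the 8 was detected in 25 CD4 and 2 CD8 cells. Ccl5 and Nkg7 were detected together in 10 CD4 and 54 CD8 cells. Of the 7 CD4 cells with at least 4 killer genes, 2 were among the 37 with Foxp3 and 5 among the 41 without. With 8 regulatory genes chosen in the same way (Foxp3, Il2ra, Tnfrsf4, Tnfrsf18, Icos, Ctla4, Ikzf2 and Capg), at least 4 were detected in 49 of 78 CD4 (62.8%) and 16 of 77 CD8 cells (20.8%). The sets are not exclusive to a lineage, and the regulatory set also marks activated cells of either kind.

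The wild-type plates gave the same comparison in another source, side by side and with no test of the difference between sources, since each source has 1 plate per cell type. Of the 44 genes at least 2 higher in CD4 cells of the knockout source, 39 were above 0 in the wild-type source, where 23.7% of 7078 genes measured in both were above 0, and 11 were at least 2 higher, against 0.301% of the 7983 genes measured there. Of the 74 lower genes, 70 were below 0 there, against 76.3% of all genes, and 29 were at least 2 lower, against 2.36%. Among lineage genes, Cd4 differed by 7.67 in the knockout and 7.16 in the wild-type source, Cd8a by -7.17 and -7.59, Ccl5 by -6.98 and -7.06, and Foxp3 by 4.38 and 3.23. Klrd1 differed by -3.97 and -4.93 and Klrc1 by -3.52 and -4.59, and the median of the CD8 lineage list was -3.37 over 12 measured members in the knockout and -4.76 over 10 in the wild-type source. In the knockout source Ccr2 differed by 3.82, against 0.98 in the wild-type source, and Ifi27l2a by 4.17, against 0.92. For Lag3 the difference was -0.01 in the knockout source and -3.84 in the wild-type source, for Pdcd1 -1.01 and -3.95, and for Gzmb 0.89 and -2.66. Lag3 was detected in 24.7% of knockout and 63.9% of wild-type CD8 cells, and in 26.9% of knockout and 18.9% of wild-type CD4 cells. The wild-type CD8 cells had a median of 2530.5 detected genes, and the part of this depth in the values was not tested.

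**Figure D5:**
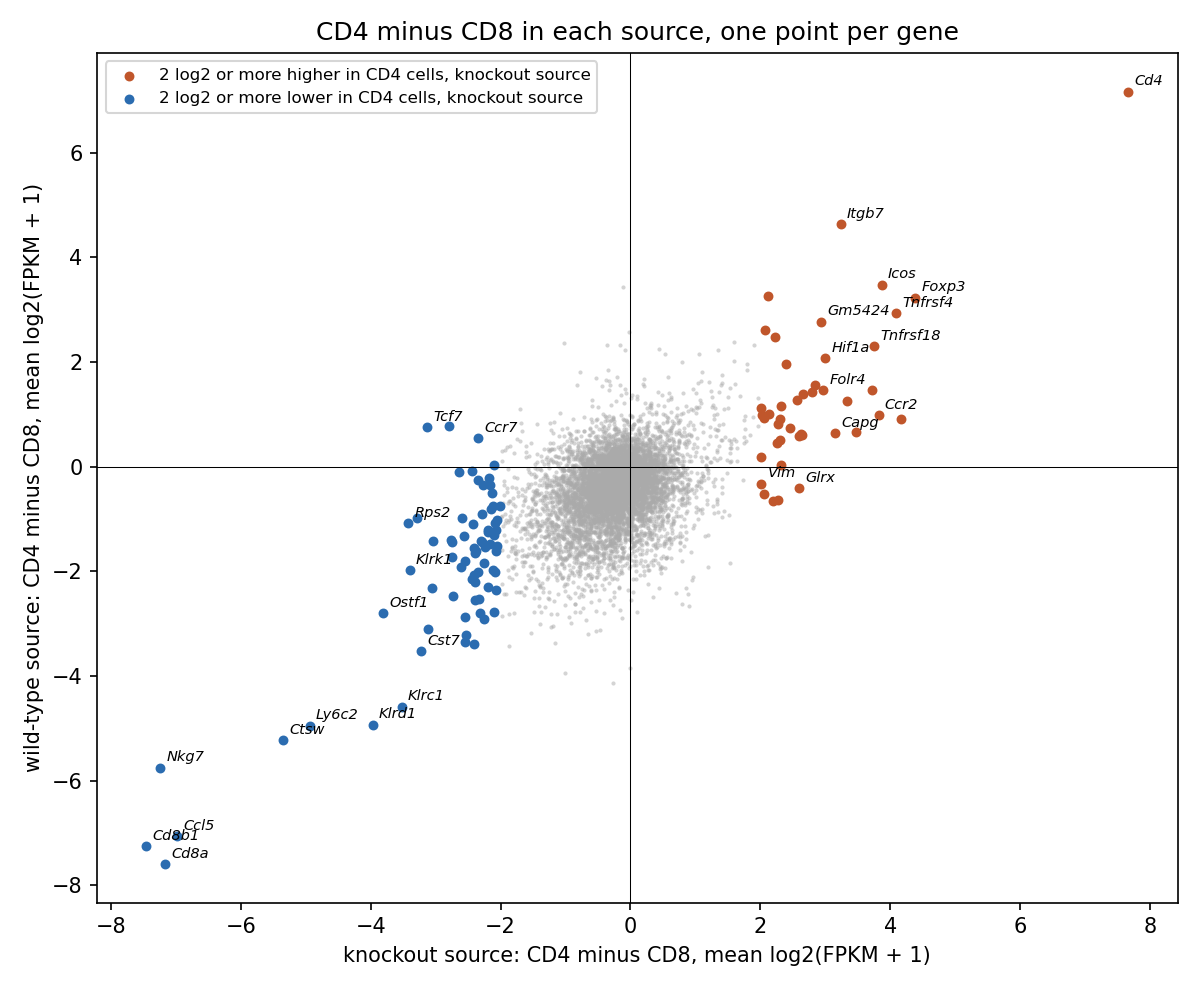
CD4 minus CD8 difference in mean log2(FPKM + 1) in the knockout source (horizontal axis) and the wild-type source (vertical axis), with 1 point per gene. Of the orange genes, at least 2 higher in knockout CD4 cells, 39 of 44 lie above 0 in the wild-type source, and of the blue genes, at least 2 lower, 70 of 74 lie below 0; Tcf7, Ccr7, Eif3f and Glrx are among those with opposite signs.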

How the data were processed

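Single-cell RNA-seq libraries were made with the Smart-seq2 method, per the labels' protocols. The deposited table gives FPKM with TMM normalization for 23420 gene symbols, and the submitters' processing notes name Bowtie, RSEM and build mm10, whose versions the sources used here do not give. Reads shared by similar genes are divided by RSEM, so close copies are uncertain. The table holds no counts: 50.5% (CD4) and 51.3% (CD8) of low values lay within 0.1 of a whole read, so reads were not recovered and depth is given as detected genes. With 1 plate per group, differences of plate means of log2(FPKM + 1) were counted past a size of 2 with no test. Detection was 1 FPKM. Genes were measured when detected in 10% of kept cells of either plate, and population libraries needed 5 FPKM in either. For a gene that passed through 1 plate alone, this filter partly set the direction in the cells. Named genes are the 15 widest in each direction with the same direction in the population libraries, the widest and the contrary members of each list, lineage markers and Il27ra; other named genes were chosen after their values were seen, and a few genes under the rule are not reported here. Members and lists were chosen with earlier results of these data known. Doublets were not called, but cells with markers of other types were left out in an alternative. The calculation was tested on simulated data in which only the level in detecting cells was changed. Gaps in the share of detecting cells or in detected genes per cell were not simulated. Coordinates are from GENCODE M21. Python 3.11.15, pandas 2.3.3, numpy 2.4.6 and scipy 1.17.1 were used.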

Additional observations from a re-analysis of the deposited data

Results flagged for a closer look

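In 9 genes that were at least 2 log2 units apart between CD4 and CD8 cells of the knockout source, the difference had the opposite sign in the wild-type source. The difference between sources was not tested, since each source has 1 plate per cell type. Glrx differed by 2.59 in the knockout and -0.41 in the wild-type source. Zbp1 differed by 2.27 and -0.64, Tnfrsf9 by 2.20 and -0.66, Trp53i11 by 2.05 and -0.52, and Vim, an intermediate filament protein, by 2.02 and -0.33. In the other direction, Eif4a1 differed by -2.10 in the knockout and 0.03 in the wild-type source. Ccr7 differed by -2.35 and 0.55, Eif3f by -2.80 and 0.78, and Tcf7 by -3.13 and 0.76. Tcf7 was detected in 23.1% of knockout and 33.8% of wild-type CD4 cells, and in 61.04% of knockout and 26.4% of wild-type CD8 cells.

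For 4 gene lists, the median lay on opposite sides of each source's own all-gene median (-0.21 in the knockout and -0.38 in the wild-type source), with distances from it that differed by at least 1 log2 unit. This was not tested either. The Th1 list had a median of -0.84 in the knockout and 0.04 in the wild-type source, and the co-inhibitory receptors 0.45 and -1.37. The naive and memory list had -0.64 and 0.39, and the tissue residence list -0.30 and 0.78.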

How the results depend on the processing

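No paired analysis was possible because each cell type has 1 plate per source, and for the same reason no replicate could be left out. Relative to 44 higher and 74 lower genes, the counts were 1.98 and 3.69 times as large with a pseudocount of 0.1, 0.295 and 0.176 times with a pseudocount of 10, and 4.02 and 3.42 times with arithmetic means. Of the 44 and 74 genes themselves, 13 and 13 remained past 2 with the pseudocount of 10, and 20 and 18 with arithmetic means. The higher count was 1.70 times as large in cells with 2000 or more detected genes (75 genes), 1.91 times in matched cells (84) and 0.477 times without Foxp3-detected cells (21). The other counts were within 1.5 times. Values under 10 FPKM set to 0, an alternative chosen after seeing the data, gave 45 and 79. The all-gene median ranged from -0.34 to -0.01. All 44 kept their direction under every alternative except without Foxp3-detected cells (41), and all 74 under every one, population libraries left aside. Foxp3 is among the 44, and leaving out those cells fixed its own result. The population counts of 597 and 879 were 0.173 and 0.130 times as large with a pseudocount of 10, and 0.417 and 0.425 times for genes at 20 FPKM or more. Signs turned in the population libraries for the lists T cell identity (0.19), T cell receptor signalling (0.058), naive and memory (0.17) and sex-linked genes (0.54), and for Slamf1 (-0.16), Rnf7 (0.27) and Slc20a1 (0.30). Without Foxp3-detected cells they turned for co-stimulatory receptors (-0.30), Tnfrsf9 (-0.41) and Ctla4 (-0.58), and without a gene filter for the stromal list (-0.055). The cause was not tested. With 1 plate per cell type, neither mouse nor plate can be told apart from cell type, and depth in reads is not known.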

Other observations

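Genes of the cytoskeleton and of calcium-binding proteins differed by member. Of 18 measured annexins, S100 proteins, galectins and companions, 12 were above the all-gene median in CD4 cells of the knockout source, where 50% of all genes lie. Vim was at least 2 higher, 6 were at least 1 higher and 1 at least 1 lower. The direction was the same in the cells and the population libraries for 11 of the 18. The list median was 0.40 in the knockout and -0.69 in the wild-type source. S100a4, S100a6 and S100a10 differed by 1.53, 1.34 and 1.41. Lgals1 (galectin-1) was detected in 84.6% of CD4 and 76.6% of CD8 cells, while its population values of 2966 FPKM in CD4 and 3096 FPKM in CD8 lay close together. Of 8 Gimap genes, GTPases of lymphocyte survival, 8 were higher in the CD4 population library, where 44.7% of all genes were above 0. In the cells 7 were above the all-gene median, with a list median of 0.32. Against CD8 cells, that list median was 1.08 for CD4 cells with Foxp3. For CD4 cells without Foxp3 it was -0.40, where the all-gene median was -0.28.

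Signalling genes downstream of cytokine receptors split by member. Cish, a feedback inhibitor induced by IL-2 and STAT5, differed by 2.26, being detected in 66.7% of CD4 and 46.8% of CD8 cells, and Socs2 by 1.76. Stat4 and Stat6 differed by -2.29 and -1.42. Ptpn6 (SHP-1), a phosphatase that limits T cell receptor signals, was detected in 30.8% of CD4 and 58.4% of CD8 cells, with 292.6 FPKM in the CD4 and 615 FPKM in the CD8 population library. Hspe1, the mitochondrial co-chaperonin, was detected in 25.6% of CD4 and 51.9% of CD8 cells, and Cct2, a subunit of the cytosolic chaperonin, in 38.5% and 68.8%.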
